A study of Bos taurus with 24 samples.

Results

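Transcripts of 9 genes of the germline piRNA pathway were followed in single bovine early blastocysts: PIWIL2, GTSF1, PLD6, ASZ1, TDRKH, DDX4, TDRD9, TDRD1 and MAEL. They were found by symbol among the 24621 genes of the exon count table, and every one had reads in each condition. ASZ1 and GTSF1 were selected on their measured expression differences between culture conditions, so these differences are given as a description without a test. The other 7 were chosen for their place in the pathway, though with earlier results of these data known. Low counts set a limit on what could be tested, since a gene entered a comparison only if 1 or both groups had no embryo with fewer than 15 counts. PLD6, TDRKH, MAEL and GTSF1 reached that limit in all 24 embryos, ASZ1, TDRD1, PIWIL2 and DDX4 reached it in every embryo of at least 1 condition, and TDRD9 reached it in 7 of 8 embryos of each condition and entered no comparison of conditions.

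PIWI-interacting RNAs (piRNAs) are small RNAs that guide Argonaute proteins of the PIWI clade to transposon transcripts, which are then cut or silenced at their genes. Precursor transcripts are processed at the surface of mitochondria and in granules of the cytoplasm called nuage, where Tudor domain proteins and RNA helicases gather the PIWI proteins and their cofactors. The pathway is best known from the testis and ovary, where its loss releases transposons, and several of its genes are common markers of germ cells. The exon counts hold messenger RNA of the pathway's proteins and no measurement of piRNAs or transposons.

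All embryos were Holstein early blastocysts of the best quality grade, sired by a single bull and sequenced singly. The 8 in vivo derived embryos (5 male, 3 female) were flushed from 3 superovulated cows 7 days after insemination. The 8 serum embryos (3 male, 5 female) came from oocytes of slaughterhouse ovaries that were matured with 20% fetal bovine serum and cultured after fertilization in synthetic oviduct fluid with 5% serum. The 8 serum-free embryos (5 male, 3 female) came from the same source, with 20 ng/mL epidermal growth factor during maturation and with 0.4% bovine serum albumin, insulin and transferrin (each at 5 µg/mL) and 5 ng/mL selenium during culture. Embryos produced in vitro were collected between day 6 and day 7 in 3 experiments, and sex had been determined by PCR on the embryo's RNA. The labels do not give the cow, the in vitro experiment or the sequencing lane of an embryo, so differences could not be computed within these, and embryos that share a cow or an experiment are counted as separate replicates.

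Exon counts per embryo ranged from 3253051 to 9000447. The female serum embryo B2 stood apart: its mean correlation with the other serum embryos, over log2 expression values, was 0.779, against 0.863 to 0.895 for the other serum embryos. Keratins and other markers of the trophectoderm, the outer cell layer of a blastocyst, were read in all in vivo derived embryos, with a summed level of 10 genes between 7154 and 14712 CPM (TMM-normalized counts scaled to a common library size of 1e+06). The same sum was 4821 to 27786 CPM in serum-free embryos and 107 to 5041 CPM in serum embryos, lowest in B2. The keratin KRT8 alone was 5776 to 11596 CPM in vivo, 3816 to 22547 CPM in serum-free and 38.8 to 4038 CPM in serum embryos. CDX2, a defining trophectoderm gene, stayed at or below 2.48 CPM in every embryo. Of the trophectoderm markers tested, 6 of 7 fell in serum embryos and 0 of 7 changed in serum-free embryos. The background over all genes tested was 6.92% higher and 6.81% lower in serum embryos, and 2.24% in serum-free embryos. Among hypoblast markers 2 of 3 tested (PDGFRA and FN1) fell in serum embryos, and of 3 inner cell mass markers SOX2 rose, a call lost without the serum embryo B3 (adjusted p = 0.0688) and with no count limit (0.0517). In whole embryos, fewer cells of a type and less RNA per cell cannot be told apart, and the part of these markers in the values below was not tested.

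TMM normalization corrects library sizes for differences in RNA composition. Levels are compared between embryos for 1 gene or 1 summed list at a time, because the counts are not corrected for transcript length. A summed level is set mainly by the genes of its list with the most reads.

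**Figure D1:**
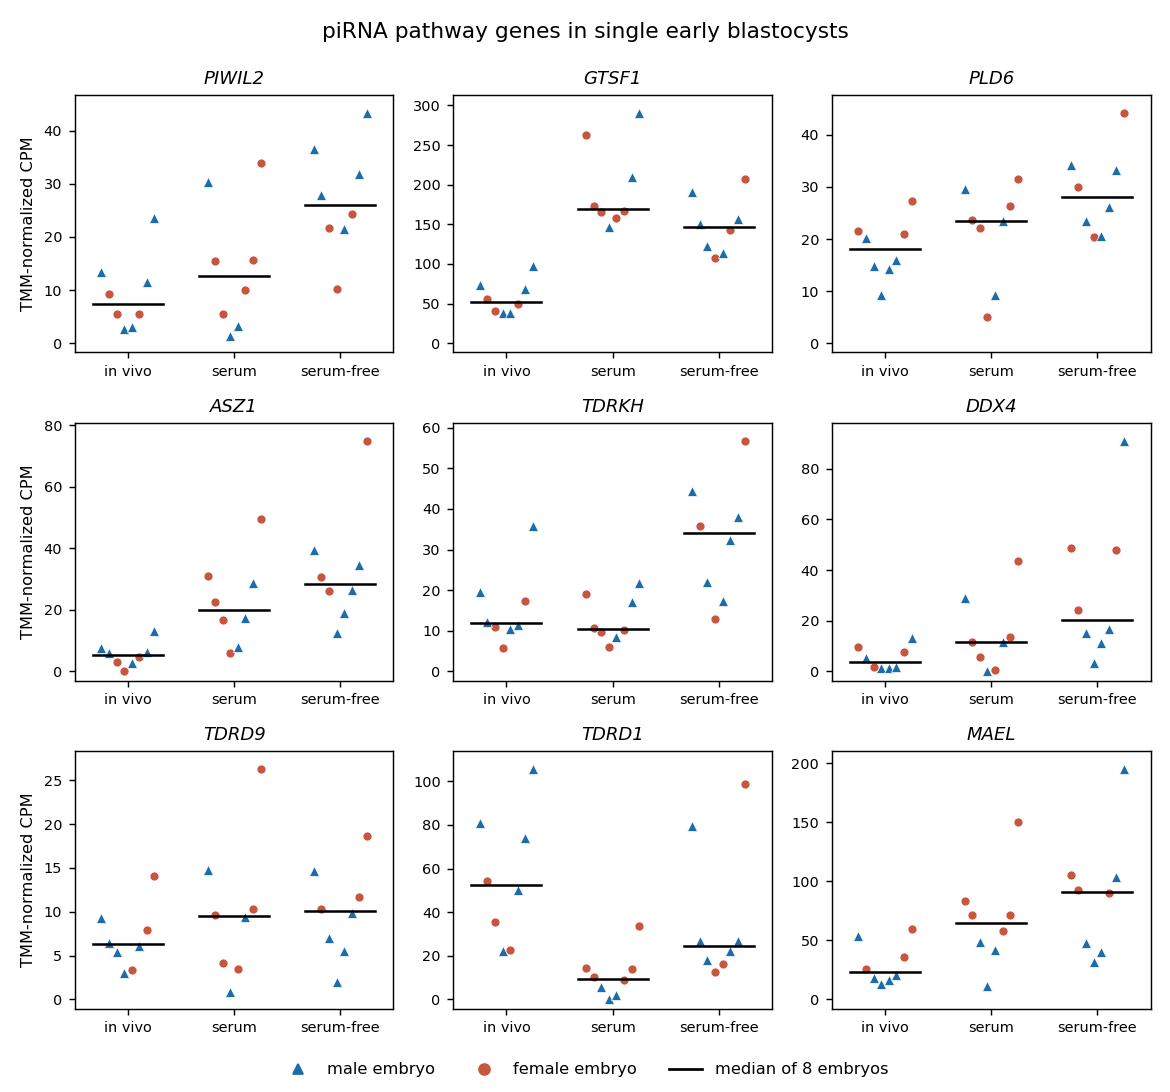
Level of each of the 9 piRNA pathway genes in TMM-normalized CPM (vertical axes, linear, each starting near 0) in 8 in vivo derived, 8 serum and 8 serum-free embryos. Each point is 1 embryo, triangles are male and circles female, and the black line is the median of 8. GTSF1 is the gene whose in vivo derived embryos, at most 97.8 CPM, all lie below the embryos of both cultures, at least 107.7 CPM, and TDRD1 has its lowest median, 9.43 CPM, in serum embryos.

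PIWIL2 encodes a PIWI protein that binds piRNAs. Its level ranged from 2.74 to 23.6 CPM (median 7.38) in in vivo derived embryos, from 1.43 to 34.0 CPM (median 12.7) in serum embryos and from 10.2 to 43.3 CPM (median 26.1) in serum-free embryos. Ranges overlapped between all conditions, with 7 of 8 serum-free embryos and 1 of 8 in vivo derived embryos at 15 CPM or more. Only the serum-free group had 15 counts or more in every embryo (6 of 8 in vivo), so the gene was tested because it was high there. PIWIL2 rose 2.92-fold in serum-free over in vivo derived embryos, a log2 fold change of 1.54 (SE 0.38, adjusted p = 0.0232, edgeR quasi-likelihood test, Benjamini-Hochberg adjusted over all genes tested). With no count limit the adjusted p was 0.0443. The call was lost in a single fit over all embryos (adjusted p = 0.157), while the adjusted p was 0.00508 to 0.0470 when 1 embryo was left out. In serum embryos the gene did not reach the count limit, and with no limit the log2 fold change over in vivo derived embryos was 0.60 with an adjusted p of 0.491. The paralogues PIWIL1, PIWIL3 and PIWIL4 had at most 16, 48 and 7 counts in any embryo.

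GTSF1 encodes a small zinc finger protein that assists PIWI proteins in cutting their targets. Its level was 57.6 ± 21.2 CPM (SD, n = 8; 37.5 to 97.8) in in vivo derived embryos, 196 ± 53.1 CPM (SD, n = 8; 147 to 290.5) in serum embryos and 149 ± 35.4 CPM (SD, n = 8; 107.7 to 206.6) in serum-free embryos. No embryo of either culture overlapped the in vivo derived range, while the ranges of both cultures overlapped each other. The log2 fold change over in vivo derived embryos was 1.79 (SE 0.22) in serum and 1.38 (SE 0.20) in serum-free medium, and these differences are what the gene was picked for. Without B2 the serum value was 1.81. GTSF1 also varied least between embryos of 1 condition, with an SD of 0.404 on the log2(CPM + 1) scale, against 0.605 to 1.50 for the other 8 genes.

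Of the 3 genes whose proteins sit at mitochondria, PLD6 encodes the phospholipase-like protein of the outer mitochondrial membrane that takes part in forming the 5′ ends of piRNAs. Its level ranged from 9.29 to 27.3 CPM (median 18.0) in in vivo derived embryos, from 4.97 to 31.6 CPM (median 23.5) in serum embryos and from 20.4 to 44.2 CPM (median 28.1) in serum-free embryos. All ranges overlapped, and B2 was the lowest embryo. PLD6 passed no test between conditions, with log2 fold changes over in vivo derived embryos of 0.26 (SE 0.33, adjusted p = 0.575) in serum and 0.70 (SE 0.23, adjusted p = 0.0827) in serum-free medium.

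ASZ1, also known as GASZ, encodes a scaffold protein anchored to mitochondria. It was listed at 0 counts in the female in vivo derived embryo A9, where 3 counts would correspond to 0.725 CPM before TMM scaling, and its highest in vivo level was 13.2 CPM. In serum embryos it ranged from 5.80 to 49.6 CPM (median 19.9), and in serum-free embryos from 12.4 to 74.8 CPM (median 28.5), so that each culture overlapped the in vivo derived range. The log2 fold change over in vivo derived embryos was 2.06 (SE 0.56) in serum and 2.60 (SE 0.48) in serum-free medium, the differences behind its choice. Without B2 the serum value was 1.98. The mean level was 5.47 ± 3.95 CPM in vivo, 22.4 ± 14.1 CPM in serum and 32.9 ± 18.9 CPM in serum-free medium (SD, n = 8 each).

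TDRKH encodes the Tudor protein that brings PIWI proteins to the mitochondrial surface for trimming of piRNA 3′ ends. Its level ranged from 5.75 to 35.8 CPM (median 11.8) in in vivo derived embryos, from 5.92 to 21.8 CPM (median 10.4) in serum embryos and from 12.8 to 56.7 CPM (median 34.1) in serum-free embryos. Serum and serum-free embryos overlapped, but 6 of 8 serum-free embryos lay above the highest serum embryo. TDRKH was 2.52-fold lower in serum than in serum-free embryos (log2 fold change -1.33, SE 0.34, adjusted p = 0.0147, edgeR quasi-likelihood test). Against in vivo derived embryos the log2 fold change was 1.09 in serum-free medium (SE 0.34, adjusted p = 0.0637) and -0.24 in serum (SE 0.36, adjusted p = 0.637). The in vivo derived embryo A3 held the highest in vivo level. Without A3 the serum-free difference passed (1.39, adjusted p = 0.0183), as it did without the serum-free embryo C10 (1.20, adjusted p = 0.0373), and without A3 the serum difference was 0.07 in the opposite direction (adjusted p = 0.898).

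Among the genes of nuage, DDX4 (VASA) encodes an RNA helicase that is a defining marker of germ cells. Its level ranged from 1.37 to 13.0 CPM (median 3.61) in in vivo derived embryos, from 0 to 43.6 CPM (median 11.5) in serum embryos and from 3.43 to 90.9 CPM (median 20.4) in serum-free embryos. DDX4 varied most of the 9 genes within a condition, with an SD of 1.50 on the log2(CPM + 1) scale, and all ranges overlapped. The male serum embryo B1 had 0 counts, for which 3 counts would correspond to 0.843 CPM before TMM scaling, and B2 had 2 counts. All 8 serum-free but 4 of 8 in vivo derived embryos had 15 counts or more, so DDX4 was tested because it was high in the former. DDX4 rose 6.20-fold in serum-free over in vivo derived embryos (log2 fold change 2.63, SE 0.59, adjusted p = 0.0127, edgeR quasi-likelihood test), a call lost in a single fit over all embryos (adjusted p = 0.115). When 1 embryo was left out, its adjusted p was 0.00498 to 0.0328, and with no count limit it was 0.0137. With counts thinned to the smallest library it fell under the limit and was not tested. With no count limit, its log2 fold change in serum over in vivo derived embryos was 1.45 (adjusted p = 0.209).

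TDRD9, a helicase with a Tudor domain, lay between 3.02 and 14.1 CPM (median 6.27) in in vivo derived embryos. It ranged from 0.856 to 26.3 CPM (median 9.52) in serum embryos and from 2.01 to 18.6 CPM (median 10.1) in serum-free embryos, and all ranges overlapped. B1 was the lowest serum embryo and B2 the highest. With no count limit, the log2 fold change over in vivo derived embryos was 0.46 (adjusted p = 0.581) in serum and 0.49 (adjusted p = 0.583) in serum-free medium.

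TDRD1 encodes a scaffold with several Tudor domains that binds methylated arginines of PIWI proteins. Its level was 55.6 ± 29.5 CPM (SD, n = 8; 22.3 to 105.5) in in vivo derived embryos, 11.1 ± 10.6 CPM (SD, n = 8; 0 to 33.8) in serum embryos and 37.6 ± 32.5 CPM (SD, n = 8; 12.5 to 98.6) in serum-free embryos. B2 was the only serum embryo within the in vivo derived range, since the other 7 were at or below 14.5 CPM. The male embryo B5, the most deeply sequenced of all, had 0 counts, where 3 counts would correspond to 0.333 CPM before TMM scaling.

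TDRD1 had 15 counts or more in all 8 in vivo derived embryos and in 6 of 8 serum embryos, so it was tested because it was high in vivo. It fell 4.95-fold in serum against in vivo derived embryos (log2 fold change -2.31, SE 0.62, adjusted p = 0.0102, edgeR quasi-likelihood test), and 7.03-fold without B2 (log2 fold change -2.81, adjusted p = 0.00176). With no count limit the fall was 5.25-fold (adjusted p = 0.00928), with sex in the model 7.06-fold (adjusted p = 0.0132) and in a single fit over all embryos 8.10-fold (adjusted p = 0.000729). The call held in all 16 fits that left out 1 embryo. In serum-free medium the log2 fold change was -0.55 (SE 0.41, adjusted p = 0.483). Between serum and serum-free embryos it was -1.76 (SE 0.68) with an adjusted p of 0.0781, and without B2 it was -2.27 with an adjusted p of 0.0290. Leaving out ASZ1 and GTSF1, 4 of the genes were tested in serum and 6 in serum-free medium against in vivo derived embryos. Among these, TDRD1 was the 1 that fell.

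MAEL (maelstrom) encodes a nuage protein needed for transposon repression in the male germ line. Its level was 30.4 ± 17.7 CPM (SD, n = 8; 13.1 to 59.5) in in vivo derived embryos, 66.9 ± 40.2 CPM (SD, n = 8; 11.6 to 150.1) in serum embryos and 88.3 ± 52.1 CPM (SD, n = 8; 31.8 to 194.8) in serum-free embryos. Both cultures overlapped the in vivo derived embryos. MAEL rose 2.93-fold in serum-free embryos (log2 fold change 1.55, SE 0.36, adjusted p = 0.0168, edgeR quasi-likelihood test), and every fit that left out 1 embryo kept this call.

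In serum embryos MAEL rose 2.23-fold (log2 fold change 1.16, SE 0.40, adjusted p = 0.0381), a call near the threshold. With sex in the model the log2 fold change was 0.81 and the adjusted p 0.103. The call was also lost in 10 of the 16 fits that left out 1 embryo (B2, B3, B6, B8, A1, A2, A3, A7, A8 or A9), with adjusted p-values up to 0.0916 and the smallest log2 fold change, 0.87, without B8.

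**Figure D2:**
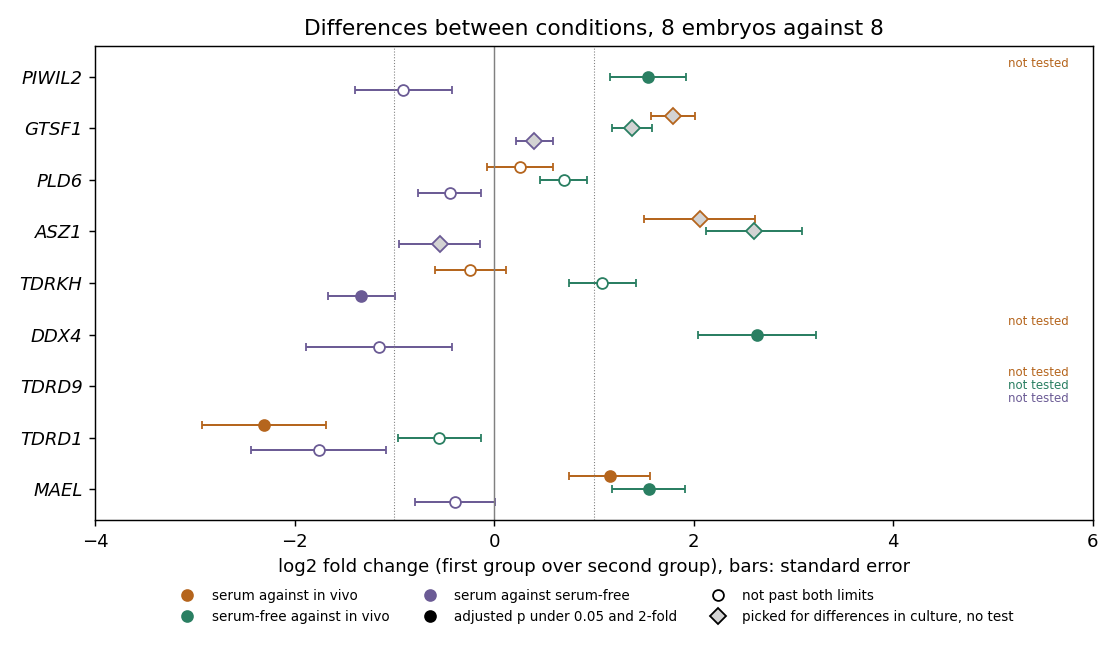
Log2 fold change of each gene (horizontal axis, first group over second) with its standard error, for serum against in vivo, serum-free against in vivo and serum against serum-free, 8 embryos each. Filled circles passed an adjusted p of 0.05 and a fold change of 2, open circles did not, and grey diamonds are ASZ1 and GTSF1, which have no test. TDRD1 at -2.31 in serum lies on the left, while DDX4 at 2.63 and ASZ1 at 2.60 in serum-free embryos lie farthest right.

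Counted over the pathway, 2 of the 4 tested genes that had not been picked for their difference passed in serum against in vivo derived embryos, MAEL upward and TDRD1 downward. The background was 13.7% of all genes tested, 6.92% higher and 6.81% lower. In serum-free against in vivo derived embryos 3 of 6 passed, PIWIL2, DDX4 and MAEL, all upward, where the background was 2.24% in both directions and 1.67% upward. These counts are a description, because TDRD1 entered the first comparison through the in vivo group alone and PIWIL2 and DDX4 entered the second through the serum-free group alone, each where it was high. Of the 3 genes that reached the limit in all embryos and were not picked (PLD6, TDRKH and MAEL), 1 passed in each of these comparisons, MAEL. Between serum and serum-free embryos 1 of 6 passed, TDRKH, against a background of 8.97%, of which 5.07% lower in serum. The first 2 comparisons share the in vivo derived embryos and are not independent. GTSF1 was the only one of the 9 whose cultured embryos did not overlap the in vivo derived embryos, a pattern that 3.24% of all genes tested showed upward in serum and 0.561% in serum-free medium. Because GTSF1 was picked for its differences in culture, these shares do not measure how unusual it is.

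The genes were not highest in the same embryos. Among serum-free embryos the male C4 held the highest level of PIWIL2, DDX4 and MAEL, while the female C3 held the highest level of ASZ1, TDRKH, PLD6 and TDRD1. Among serum embryos the female B8 was highest for PIWIL2, ASZ1, DDX4 and MAEL, and B2 for TDRD1 and TDRD9. Correlations between pairs of 8 of the genes (TDRD9 left out) within 1 condition were positive for 55 of 84, with a median Pearson r of 0.21. None of the 84 passed after adjustment by Benjamini-Hochberg, and 7 had an unadjusted p under 0.05 in the exact permutation test. The strongest was DDX4 with MAEL in serum-free embryos (Pearson r = 0.87, Spearman rho = 0.79, n = 8, exact permutation p = 0.00593 for r and 0.0279 for rho, adjusted p = 0.245 and 0.483). Without the 2 embryos farthest from the median of DDX4 it was 0.61.

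Males and females were compared within each condition, a contrast that the choice of genes had not used. By edgeR's quasi-likelihood test 0 of 8 tested genes passed in vivo (background 0.653%), 0 of 8 in serum (0.173%) and 0 of 9 in serum-free medium (0.139%), and DESeq2 and the exact test also called 0 in each. At an unadjusted p under 0.05 there were 0, 2 and 0, where the background was 13.5%, 6.29% and 8.01%. The 2 were in serum embryos, where all males lay below all females for TDRD1 and MAEL, a pattern shown downward by 3.5% of all genes tested.

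TDRD1 in serum embryos was 0, 1.84 and 5.71 CPM in the 3 males and 8.68, 10.2, 13.9, 14.5 and 33.8 CPM in the 5 females. All 5 females but 1 of 3 males had 15 counts or more, so TDRD1 was tested here because it was high in females. The log2 fold change of males over females was -2.74 (SE 1.09, unadjusted p = 0.0288, adjusted p = 0.706, edgeR quasi-likelihood test), so the difference failed the correction over all genes. In vivo the order of the medians was the opposite, with 74.0 CPM in males and 35.4 CPM in females, ranges that overlapped. The interaction of sex and serum was -3.63 on the log2 scale (SE 1.13, unadjusted p = 0.0051, adjusted p = 0.671), and without B2 it was -3.20 (adjusted p = 0.342).

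MAEL in serum embryos was 11.6, 41.5 and 48.8 CPM in males and 58.2, 71.0, 71.2, 83.1 and 150.1 CPM in females. The log2 fold change of males over females was -1.37 (SE 0.51, unadjusted p = 0.0217, adjusted p = 0.644). ASZ1 gave an interaction of sex and serum-free culture of -2.14 (SE 0.93). It is a difference between the culture changes that ASZ1 was picked for, so it is a description without a test. Medians were 6.41 CPM in males and 3.15 CPM in females in vivo, and 26.5 and 30.5 CPM in serum-free medium. The 3 in vivo derived females had 0, 14 and 20 counts of ASZ1. PLD6 was lower in all males than in all females in vivo (log2 fold change -0.64, SE 0.32, adjusted p = 0.418), a pattern of 5.51% of all genes tested. Over both interactions 0 genes passed among all tested (background 0%). Of the 6 and 7 tested pathway genes that were not picked, 1 and 0 had an unadjusted p under 0.05 (background 5.16% and 6.6%). DESeq2 called 14 and 5 genes overall with none of the 9 among them.

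**Figure D3:**
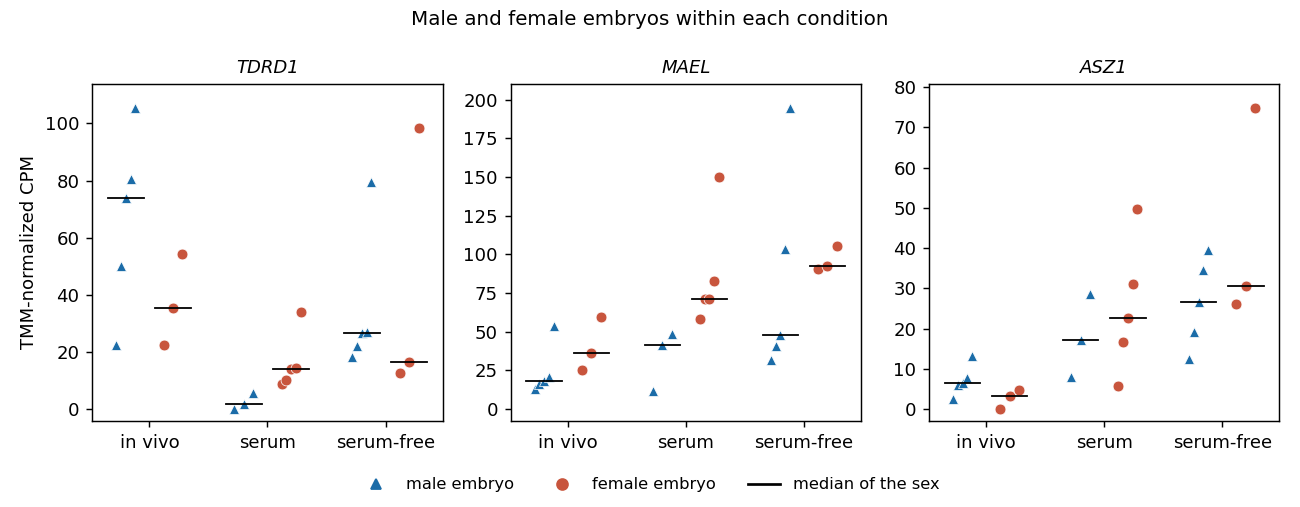
Level of TDRD1, MAEL and ASZ1 in TMM-normalized CPM (vertical axes, linear) in male (triangles) and female (circles) embryos of each condition, 3 or 5 embryos a sex, with the median of the sex as a black line. In serum the 3 males lie below the 5 females for TDRD1 (at most 5.71 against at least 8.68 CPM) and MAEL (at most 48.8 against at least 58.2 CPM).

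Of 30 other genes of the piRNA pathway 27 were in the count table, and most had few reads. In serum embryos 10 could be tested, of which 3 rose and 1 fell, where the background was 6.92% higher and 6.81% lower. Their median log2 fold change was 0.09 against 0.05 over all genes. STK31, a Tudor and kinase domain protein of the testis, ranged from 0.240 to 6.10 CPM in in vivo derived and from 2.71 to 60.1 CPM in serum embryos (log2 fold change 3.28, SE 0.68). HENMT1, the methyltransferase that protects piRNA 3′ ends, had a log2 fold change of 1.99 (SE 0.46), and RNF17, a Tudor protein of germ cell granules, of 1.78 (SE 0.47). RNF17 and STK31 entered the comparison through the serum group alone. MOV10, an RNA helicase that restrains retrotransposons in many cell types, fell from 1087 to 1679 CPM in in vivo derived embryos to 22.0 to 794.2 CPM in serum embryos (log2 fold change -1.69, SE 0.41), without overlap.

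In serum-free embryos 9 of these genes could be tested and RNF17 alone passed, upward, where the background was 1.67% higher. RNF17 was again admitted through the cultured group alone, with a log2 fold change of 2.21 (SE 0.42). Its ranges were 0.442 to 3.94 CPM in vivo and 5.08 to 13.7 CPM in serum-free medium and did not overlap. The median over the 9 was -0.07, against 0.01 over all genes. MOV10 had a log2 fold change of -0.81, short of a 2-fold change, with an adjusted p of 0.0024. Between serum and serum-free embryos HENMT1 was higher in serum (2.05, SE 0.59, adjusted p = 0.0264), a call lost without B2 (adjusted p = 0.0515) or without B5 (adjusted p = 0.0502). The other 9 tested did not pass, where the background was 8.97%.

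**Figure D4:**
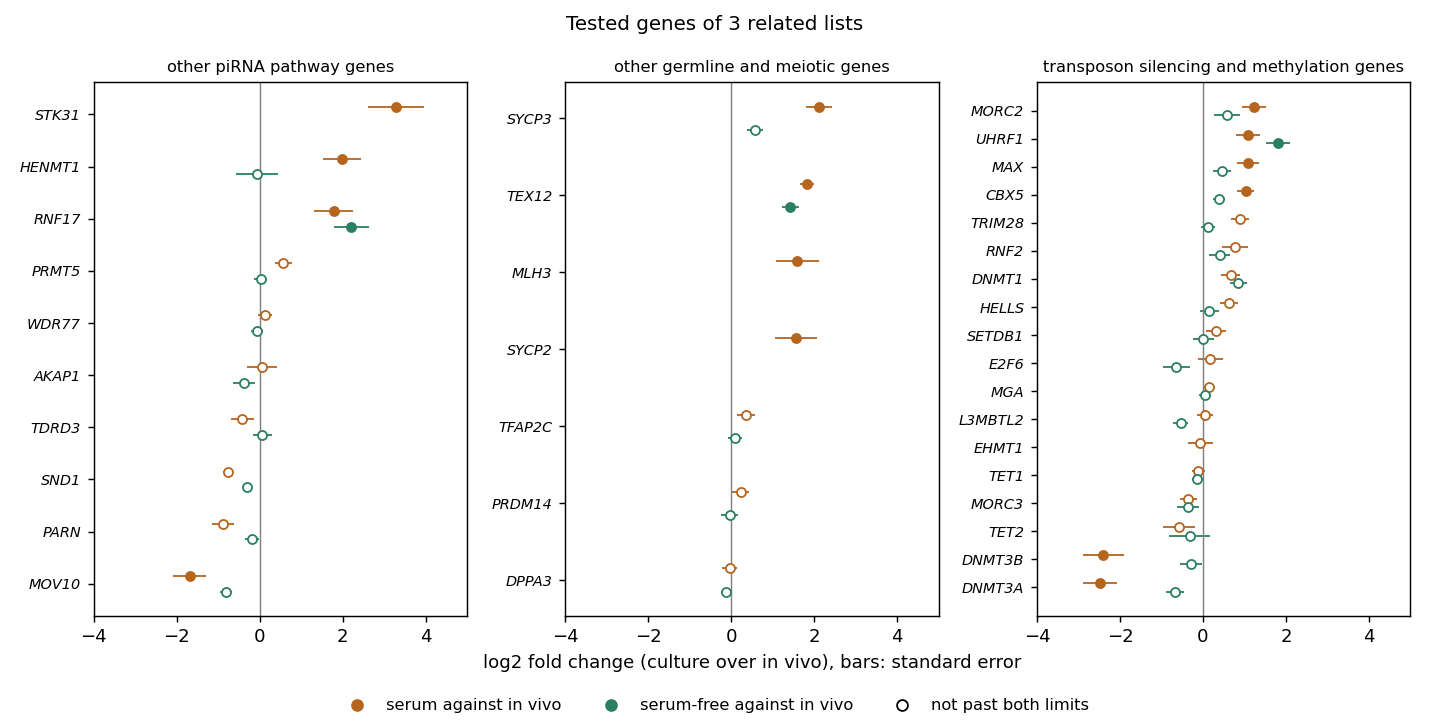
Log2 fold change over in vivo derived embryos (horizontal axes) with its standard error for every tested gene of 3 lists, in serum (brown) and in serum-free medium (green). Filled points passed an adjusted p of 0.05 and a fold change of 2. STK31 at 3.28 is highest among the other piRNA pathway genes, and DNMT3A at -2.48 and DNMT3B at -2.41 are lowest in the list of transposon silencing and methylation genes, both in serum.

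Genes of the germ line outside the piRNA pathway gave 7 tested of 37 in the table for serum embryos, and 4 rose (background 6.92% higher). TEX12, a part of the synaptonemal complex that pairs meiotic chromosomes, ranged from 41.1 to 85.8 CPM in vivo, from 182.6 to 347.4 CPM in serum and from 102.4 to 297.2 CPM in serum-free medium. Neither culture overlapped the in vivo derived embryos, as for GTSF1, and the log2 fold changes were 1.83 (SE 0.17) and 1.42 (SE 0.20). SYCP3, of the same complex, rose in serum (2.11, SE 0.31) without overlap. SYCP2 (1.56, SE 0.50) and the mismatch repair gene MLH3 (1.59, SE 0.53) also passed in serum, both through the serum group's counts alone. With no count limit both calls were lost (adjusted p = 0.0728 and 0.0777), and MLH3 also lost it in 4 of 16 fits that left out 1 embryo (B3, A3, A8 or A9). In serum-free embryos TEX12 was the 1 of 5 that passed (background 2.24%). DPPA3, PRDM14 and TFAP2C, early germ cell genes that pluripotent cells also express, were tested in both cultures and passed in neither, with log2 fold changes from -0.14 to 0.35. The median log2 fold change of the tested genes was 1.56 in serum (0.05 over all genes) and 0.09 in serum-free medium (0.01 over all genes). The serum median is the value of SYCP2, which the count limit admitted through the serum group alone, so it is a description.

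Of a mixed list of genes for adding, reading or removing DNA methylation and for repressive chromatin, 18 of 23 in the table were tested in serum embryos. In serum 4 rose and 2 fell, where the background was 6.92% higher and 6.81% lower. The 2 that fell were the de novo DNA methyltransferases DNMT3A (log2 fold change -2.48, SE 0.41) and DNMT3B (-2.41, SE 0.49), each without overlap, and both were also lower in serum than in serum-free embryos (-1.82, SE 0.44, and -2.13, SE 0.51). UHRF1, which recruits the maintenance methyltransferase, rose in serum (1.09, SE 0.29) and in serum-free medium (1.81, SE 0.30). It was the 1 of 17 that passed in serum-free medium (background 2.24%). MORC2 and MAX rose in serum by log2 fold changes of 1.22 and 1.09. CBX5 also passed, at 1.03, close to the 2-fold limit, and its call under other settings was not summarized. The serum calls of UHRF1 (0.96) and MAX (0.85) fell short of a 2-fold change without B2, and UHRF1 also without A1 (0.98) or A4 (0.97), in a single fit over all embryos (0.99) and with sex in the model (0.99).

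Because oocytes also carry piRNA pathway transcripts, 21 oocyte genes were read beside them. Their summed level was 21.1 to 82.7 CPM in in vivo derived embryos, 28.3 to 333.8 CPM in serum embryos and 49.8 to 734.2 CPM in serum-free embryos. BTG4 alone reached 493.7 CPM in serum-free embryos, so a high sum can come largely from 1 gene. OOEP rose in serum (log2 fold change 2.05, SE 0.52) and in serum-free medium (2.34, SE 0.40), and BTG4 rose in serum-free medium (4.77, SE 1.04). They were the 1 and 2 oocyte genes tested and entered through the cultured groups alone. The background was 6.92% higher in serum and 1.67% higher in serum-free medium. BTG4 was also lower in serum than in serum-free embryos (-3.08, SE 0.95, adjusted p = 0.0337), a call lost with sex in the model (adjusted p = 0.135) and in 7 of 16 fits without 1 embryo (B3, B5, B6, B7, C1, C2 or C7). The embryo with the highest sum, the serum-free C1, had the lowest DDX4 (3.43 CPM) and MAEL (31.8 CPM) of its condition. Its TDRD9 (14.7 CPM) was next to highest. The highest serum embryo, B2, had 0.473 CPM of DDX4 and the lowest PLD6 (4.97 CPM) and TDRKH (5.92 CPM) of its condition. B2 also had the highest TDRD1 and TDRD9, and its MAEL (83.1 CPM) and ASZ1 (31.0 CPM) were next to highest. The part of remaining oocyte RNA in the levels of the pathway genes was not tested beyond these values. Cumulus cell markers summed to 4.83 to 60.1 CPM with 0 of 1 tested called in either culture, and blood and uterine epithelium markers to at most 7.80 CPM. Sperm markers summed to 30.6 to 110.8 CPM with 0 of 1 tested called. Of these, ODF2 alone was 18.9 to 109.6 CPM, while PRM1, ODF1 and AKAP4 stayed at or below 0.563, 0.197 and 0.701 CPM.

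Genes whose level followed ASZ1 or GTSF1 most closely were sought over all 24 embryos among 7235 genes, as a description in which differences between conditions take part. For ASZ1 they were PARK7 (Pearson r = 0.77), HSPBP1 (0.77), CEP85 (0.74), DNAJB11 (0.73) and CD40 (0.71). For GTSF1 they were EIF6 (0.89), SAR1A (0.86), NCLN (0.84), RPS4Y1 (0.84) and MGC137030 (0.84). With the mean of each condition removed, these values fell to 0.42 to 0.68 for ASZ1 and to 0.23 to 0.50 for GTSF1.

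Reads were counted without strand, so reads of an overlapping gene would be counted together. In a later RefSeq assembly only TDRD9 overlaps another protein-coding gene, RD3L, which had 0 counts in all embryos. Of the nearest protein-coding genes on either side of the 9, the 6 that could be tested (POLR3D, SLC39A14, FLCN, SLC38A9, CCDC186 and ITGA5) passed in neither comparison with in vivo derived embryos. In serum, POLR3D (log2 fold change 0.59), SLC39A14 (-0.61) and SLC38A9 (-0.72) had an adjusted p under 0.05 but changed less than 2-fold. The same held for CCDC186 (-0.77) and ITGA5 (0.65) in serum-free medium, by edgeR's quasi-likelihood test. Those beside ASZ1, CFTR and WNT2, had at most 47 and 5 counts in any embryo.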

How the data were processed

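Early bovine blastocysts were sequenced singly after amplification of their RNA. The authors trimmed the paired reads, mapped them to the bovine genome UMD 3.1 with its Ensembl annotation and deposited raw counts of uniquely mapped exon reads for each gene. The labels gave condition and sex, and all 24 columns were matched to embryos by name.

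Counts were normalized by TMM and tested with the quasi-likelihood test of edgeR 4.0.16 in R 4.3.3, in fits holding only the groups compared. Genes without an embryo under 15 counts in 1 or both groups were tested. P-values were adjusted by Benjamini-Hochberg over all genes tested, and calls needed an adjusted p below 0.05 and a change of 2-fold or more. Standard errors are approximate, derived from each estimate and F value. Alternatives were DESeq2 1.42.0, its size factors, the edgeR exact test, no count limit, a single fit over all embryos, sex as a covariate, the replicate number as a block, thinned counts and leaving out each embryo. The code was tested on simulated data.

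The 9 genes and the other lists were chosen with earlier results of these data known. The text names the 9 genes, up to 5 called genes of each other list and comparison, and the 5 genes with a symbol most correlated with ASZ1 and with GTSF1 on log2(CPM + 1). Other genes, such as CDX2, CBX5, the PIWIL paralogues, the early germ cell genes and neighbouring genes, were named after their values were seen. Gene neighbours came from RefSeq assembly ARS-UCD2.0, a different build, so no coordinates are given. Promoter sequences were not analysed here. Limits from a count of 0 cover counting error only. Embryos are separate, but donors are not labelled, so p-values measure the spread between these embryos.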

Additional observations from a re-analysis of the deposited data

Results flagged for a closer look

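4 of 27 gene and condition groups of 8 embryos held an embryo whose distance from its nearest neighbour took up more of the group's range than Dixon's 95% limit allows. That limit is made for normally distributed values, and untransformed CPM need not be. All 4 were the highest embryo of their group, so their number is a description and is not set against a rate by chance. ASZ1 was 74.8 CPM in the serum-free embryo C3, against 39.4 CPM in the next highest. TDRKH was 35.8 CPM in the in vivo derived embryo A3, against 19.4 CPM in the next. TDRD1 was 33.8 CPM in the serum embryo B2, which stood apart over all genes, against 14.5 CPM in the next. MAEL was 194.8 CPM in the serum-free embryo C4, against 105.5 CPM in the next.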

How the results depend on the processing

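Among the 9 genes, calls changed as follows under other settings. MAEL in serum against in vivo derived embryos was lost with no count limit (adjusted p = 0.0597), in a single fit over all embryos (0.113) and with sex as a covariate (0.103). PIWIL2 and DDX4 in serum-free embryos were lost in the single fit (0.157 and 0.115), and DDX4 was not tested with thinned counts. TDRKH in serum-free embryos passed with DESeq2 (0.0210) and the exact test (0.0295). TDRD1 in serum against serum-free embryos passed with the exact test (0.0478), the single fit (0.00322) and sex as a covariate (0.0341). Without the in vivo derived embryo A3, TDRKH in serum against in vivo turned to 0.0656 on the log2 scale (range without 1 embryo, -0.387 to 0.0656). TDRD1 in serum against in vivo went from a 4.95-fold to an 8.10-fold fall in the single fit. In serum-free against in vivo, 3 of the 6 tested genes not picked for their difference passed and 1 in the single fit, against 2.24% of all genes tested; with ASZ1 and GTSF1, whose differences are no test, these counts are 5 and 3. In serum against serum-free 1 passed, with 2 by the exact test, the single fit and the sex covariate, and 1 to 2 when 1 embryo was left out. The cause of these changes was not tested.

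Over all genes, serum-free against in vivo gave 164 calls, and 67 in the single fit. Serum against serum-free gave 644, and 393 to 770 without 1 embryo, lowest without C7. Males against females in vivo gave 52 calls, 116 with DESeq2, 119 by the exact test, 92 with no limit and 23 in the single fit. In serum they gave 13, then 97, 64 and 76 (DESeq2, exact test, single fit), and 7 to 23 without 1 embryo. In serum-free medium they gave 11, then 57, 53, 23 and 17 (DESeq2, exact test, no limit, single fit), and 8 to 17 without 1 embryo. The interactions gave 0, with 14 and 5 by DESeq2, and 0 to 3 for serum without 1 embryo.

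Replicate numbers did not pair the embryos: correlations of deviations between embryos with the same number were -0.123 to 0.0832. With the replicate number as a block, 78 genes passed in serum-free against in vivo, and 24 genes and 0 of the 9 in serum against serum-free, where TDRKH had an adjusted p of 0.0591. Of the other named genes, the block ended the calls of HENMT1 (adjusted p = 0.0882), MLH3 (0.0948), SOX2 (0.105), FN1 (0.0637) and IFNT (0.0578) in serum, of RNF17 (0.0521) in serum-free medium, and of HENMT1 (0.171), SYCP3 (0.0702), BTG4 (0.0591), DNMT3A (0.0768) and DNMT3B (0.0945) between the cultures. MLH3 in serum was also lost in the single fit (0.0626). Genes with few counts, above all DDX4, TDRD9 and PIWIL2, are limited by depth and by large differences between embryos.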
